A study of Mus musculus with 9 samples.

Results

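The serpins form a family of proteins most of which inhibit serine proteinases, and their genes were followed in mouse embryonic stem cells (mESC) moved between 3 media. Members were the rows annotated as protein coding whose symbol is Serpin followed by a clade letter from a to i and a number. This gave 37 of the 29069 genes in the table, so single genes were chosen by symbol and annotation. The family as a whole was selected on its levels in these samples, since it was put forward with those levels known, and the counts over its members below are descriptions and not independent support for a response of the family.

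The cells were of the D3 line, an established mESC line grown without feeder cells, and all 9 samples came from this line after 24 h of treatment. In ground-state medium (GS), which is serum-free, a MEK inhibitor (PD0325901, 1 µM), a GSK-3 inhibitor (CHIR99021, 3 µM) and LIF (20 ng/mL) were present. In differentiation medium (DM) the inhibitors and LIF were withdrawn and DMEM with 10% fetal bovine serum was used. NO medium was DM with 250 µM DETA/NO, which releases nitric oxide. DM against GS thus asks what withdrawal of the inhibitors with a change of medium does, and NO against DM what the NO donor adds. Each medium had 3 replicates with RNA from 1 dish each, and the labels do not say whether these were separate cultures, so that p-values measure the spread between these samples, which may be technical. A single cell line limits the results to that line.

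A typical serpin offers the proteinase a reactive loop as bait, is cleaved, and then traps the enzyme in a covalent complex that destroys the activity of both, which is why serpins are called suicide inhibitors. Clades A, C, D, E, F, G and I are largely secreted and act in plasma or the extracellular space, among others on thrombin, plasmin and the plasminogen activators. Clade B serpins mostly stay inside the cell and guard it against granule and lysosomal proteinases. Serpinh1 (clade H) inhibits nothing: it is Hsp47, a chaperone of the endoplasmic reticulum that holds procollagen during folding. In mouse, clades A and B have expanded into neighbouring paralogues, many named by an additional letter.

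Of the 37 members, 12 were of clade A, 15 of clade B, 3 of clade E, 2 of clade F and 1 each of clades C, D, G, H and I. A mean normalised read count above 5 over the 9 samples, the minimum of the study, was reached by 20 members (3 of clade A, 8 of clade B, all 3 of clade E, 1 of clade F and the single members of clades C, D, G, H and I). The other 17 were not tested, and none of them exceeded 18 normalised counts in any sample. Serpina3n passed the minimum only through its NO samples, so its inclusion is tied to its direction.

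For a view of the genes on which the results turn, the bases before the annotated start are shown for Serpine2, whose rise in NO rests on the most reads, for Serpinb8, which also rose, and for Serpina3i and Serpina3n, paralogues in 1 cluster on chromosome 12 of which the first was lower and the second higher in NO than in GS. Sequences are from RefSeq on GRCm38.p6, 5′ to 3′ on the strand of the gene. Of the 20 tested members 16 had an entry, with 17 promoters in all, since Serpinb6a had 2.

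The Serpine2 stretch is chr1:79858697-79858915 on the minus strand, 219 bases that end just before a first exon of the gene in GENCODE M21. Another annotated transcript starts further upstream, and the stretch lies in its first intron. The Serpinb8 stretch is chr1:107589756-107590005 on the plus strand, 250 bases. Capitals mark a match to a searched motif, of which Serpine2 has none.
Serpine2: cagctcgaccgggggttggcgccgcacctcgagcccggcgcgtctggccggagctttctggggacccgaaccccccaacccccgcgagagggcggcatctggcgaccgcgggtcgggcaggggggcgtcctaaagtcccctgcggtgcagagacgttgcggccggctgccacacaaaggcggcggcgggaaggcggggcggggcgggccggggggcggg
Serpinb8: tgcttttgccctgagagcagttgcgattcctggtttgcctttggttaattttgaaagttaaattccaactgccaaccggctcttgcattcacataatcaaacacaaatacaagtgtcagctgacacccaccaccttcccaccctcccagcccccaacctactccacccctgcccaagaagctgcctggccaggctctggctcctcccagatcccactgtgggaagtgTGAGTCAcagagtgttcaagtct

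The Serpina3i stretch is chr12:104262872-104263121 and the Serpina3n stretch chr12:104406458-104406707, both on the plus strand and 250 bases long. Capitals mark runs of at least 8 identical bases in an alignment of the pair.
Serpina3i: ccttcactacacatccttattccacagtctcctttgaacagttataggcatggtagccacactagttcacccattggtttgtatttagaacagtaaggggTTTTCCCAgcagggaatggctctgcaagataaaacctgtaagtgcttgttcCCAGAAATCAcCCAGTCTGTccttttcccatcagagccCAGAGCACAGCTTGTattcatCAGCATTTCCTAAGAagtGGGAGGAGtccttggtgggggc
Serpina3n: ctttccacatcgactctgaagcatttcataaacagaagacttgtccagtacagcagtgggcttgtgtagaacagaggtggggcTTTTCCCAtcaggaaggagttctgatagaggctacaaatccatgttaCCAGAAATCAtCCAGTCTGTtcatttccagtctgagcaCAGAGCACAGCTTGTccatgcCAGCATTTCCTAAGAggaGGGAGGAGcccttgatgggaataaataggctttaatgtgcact

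In this alignment 161 of 226 aligned positions, or 71.2%, were identical, and 6 runs covered 65 bases. Searched on both strands of the 250 bases before every start were TGANTCA (AP-1), TTCNNNGAA (STAT), GAANNTTC or TTCNNGAA (heat shock element, parts of which can overlap a STAT match), CACCTG (Zeb E-box) and ACGTG (hypoxia response element). Serpinb8 held the only AP-1 match among the 16 members, 23 bases before its start, and 6.7% of all 32851 promoters hold one. Serpina3i held a STAT match 102 bases before its start, a motif found in 7.0% of all promoters and, among the other members, only in Serpinb6a, and Serpina3n had none in its window. Heat shock matches were found in 1 member and 12.8% of all promoters, Zeb E-box matches in 2 members and 17.2%, and hypoxia matches in 3 members and 16.6%. The whole Serpine2 window was 78.8% G or C, more than 98.3% of all promoters, against a median of 52.4%. A match describes letters only, and binding was not measured here.

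The values below are normalised read counts, as deposited. Depth, estimated from what 1 read was worth in each sample, was between 14309712 and 27064952 assigned reads per sample, and 1 read was worth 0.7009 to 1.323 normalised counts. NO replicate 2 stood apart: it had the highest value of the 3 NO samples in 95.4% of the 1231 genes that were higher in NO than in DM, and in all 6 members among them, against 41.8% of all tested genes. For most results that rest on this sample, a value or count without it is also given. Of the 9 mESC marker genes tested none was called, and their values summed to between 87362 and 91835 in GS, 82211 and 92407 in DM and 54731 and 85991 in NO, with the low end of NO in replicate 2. Pou5f1, the mESC transcription factor Oct4, was at 8983, 4276 and 9978 in NO against 11988 to 15354 in DM (log2 fold change -0.95, adjusted p = 0.0349, under the 2-fold limit). It was lowest in NO replicate 2. Tbx3 went the other way in NO against DM (0.47, adjusted p = 0.0383), as did Nanog (0.43, adjusted p = 0.155). The other markers of this list lay between -0.78 (Tdgf1) and -0.01 (Klf2).

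Fold changes come from limma on log2(normalised count + 1) over 18156 genes, and a gene was called at a Benjamini-Hochberg adjusted p under 0.05 with at least a 2-fold change. Between DM and GS, 0 of the 20 members were called higher (2.94% of all tested genes were) and 2 were called lower (1.27% of all genes), namely Serping1 and Serpinb1a. At an unadjusted p under 0.05, 0 members were higher and 3 lower, counts for which the share of all genes was not computed. Between NO and GS, 5 members were called higher (10.1% of all genes), which were Serpine2, Serpinh1, Serpinb6c, Serpinb8 and Serpina3n, and 1 was called lower (1.64% of all genes), Serpina3i. Between NO and DM, the same 5 and Serpinb1b were called higher (6.78% of all genes), and 0 were called lower (1.77% of all genes). At the unadjusted limit, again without a share of all genes, 9 members were higher and 2 lower in NO against GS. In NO against DM 9 were higher and 1 lower at that limit. Without such shares, none of these unadjusted counts can be read as a result about the members. The median log2 fold change of the members was -0.11 for DM against GS, 0.51 for NO against GS and 0.63 for NO against DM, where the medians of all genes were 0, -0.02 and 0. Both NO comparisons share the NO samples and are not independent of each other. In bulk RNA, a change in the share of cells that express a gene and a change in RNA per cell cannot be told apart.

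**Figure D1:**
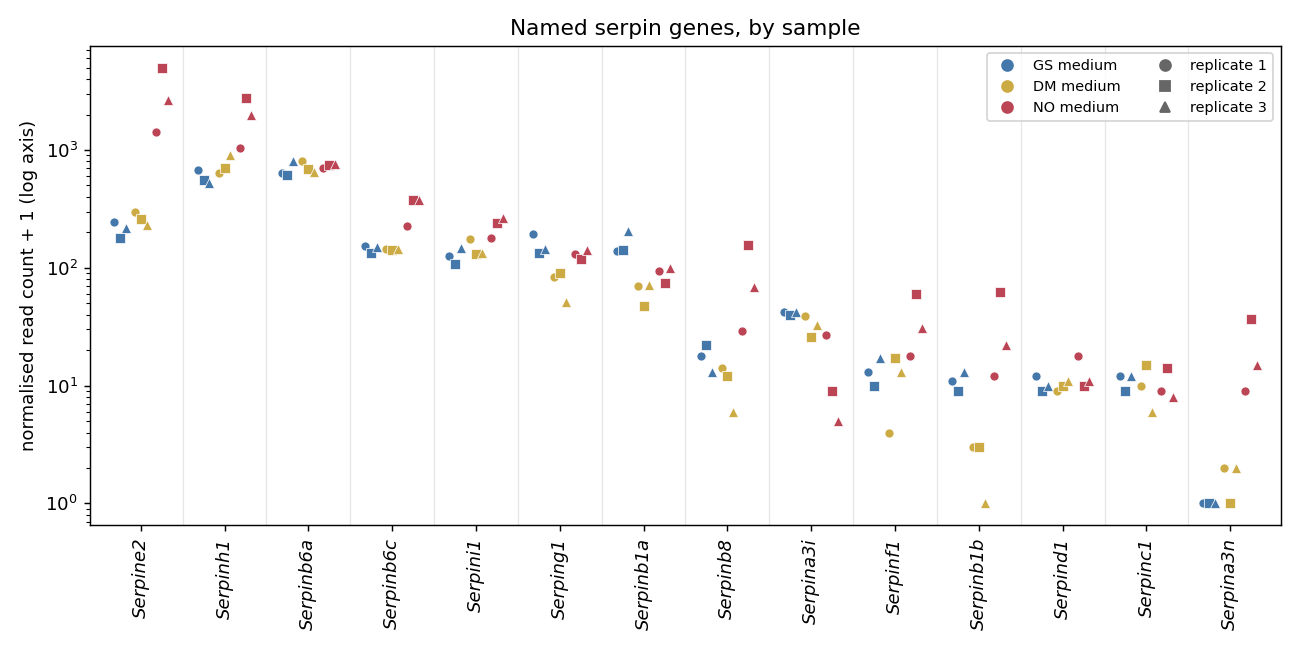
Normalised read count + 1 (log axis) of the serpin genes that the rule for naming genes gives, ordered by their mean; colours are the media and symbols the replicates. Serpine2 and Serpina3n in NO lie above all 6 GS and DM samples, and Serpinb6a is level. NO replicate 2 (square) is the highest sample of the 6 genes called higher in NO than in DM.

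**Figure D2:**
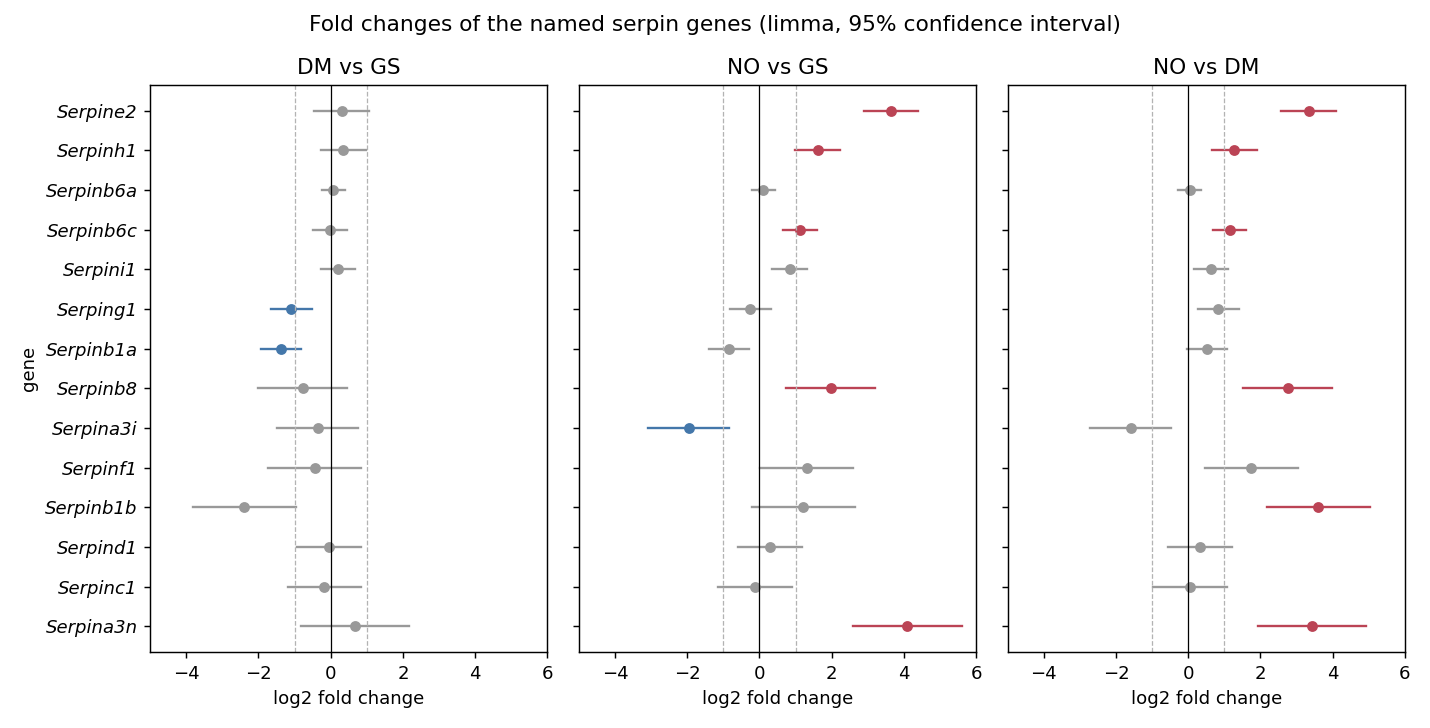
Log2 fold change (x axis) of the same serpin genes for 3 comparisons, with the 95% confidence interval of the limma fit as a line; dashed lines mark a 2-fold change, red and blue the genes called higher and lower. Red points appear in both NO panels, and DM against GS has 2 blue points, Serping1 and Serpinb1a.

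Clade E holds the inhibitors of the plasminogen activators. Serpine2 (ENSMUSG00000026249, chromosome 1, 79794197 to 79861180, minus strand, GRCm38) encodes protease nexin-1, which inhibits thrombin, urokinase and tissue plasminogen activator at the cell surface. Its normalised counts in replicates 1, 2 and 3 were 245, 177 and 217 with GS medium, 296, 261 and 230 with DM and 1420, 4989 and 2632 with NO. Every NO sample was far above every GS and DM sample, while GS and DM overlapped. Mean and SD over 3 replicates came to 213 ± 34.2 for GS, 262.3 ± 33 for DM and 3013.7 ± 1810 for NO. The log2 fold change of Serpine2 was 3.34 ± 0.35 (SE) between NO and DM (adjusted p = 0.00102) and 3.64 ± 0.35 between NO and GS (adjusted p = 0.000305), a 10.1-fold and a 12.5-fold rise. Without NO replicate 2 the value against DM was 2.88 (adjusted p = 0.000235). Between DM and GS it was 0.30 (adjusted p = 0.686, 95% confidence interval -0.45 to 1.06).

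Serpine3, of the same clade, lay between 14 and 36 normalised counts in all samples, was called in no comparison, and shares exon sequence with Ints6.

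Clade H is Serpinh1 alone (ENSMUSG00000070436, chromosome 7, 99345376 to 99353239, minus strand), the collagen chaperone. Its values were 670, 558 and 519 in GS, 638, 699 and 897 in DM and 1044, 2736 and 1970 in NO. All 3 NO samples were above the 6 others, and NO replicate 1 only slightly above DM replicate 3. It rose by 1.62 ± 0.29 (SE) between GS and NO on the log2 scale (adjusted p = 0.0031) and by 1.27 ± 0.29 between DM and NO (adjusted p = 0.0159). Without NO replicate 2 the latter was 0.96 (adjusted p = 0.038), below the 2-fold limit, and the adjusted p passed 0.05 without NO replicate 3, DM replicate 1 or DM replicate 2. Per kilobase of exon Serpinh1 was the member with the highest level in every medium, with a mean of 238 in GS, 305 in DM and 785 in NO.

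Within clade B, the intracellular serpins, 4 members were called in at least 1 comparison and the one with the highest mean count was not. Serpinb6a (chromosome 13, 33917918 to 34002794, minus strand), an inhibitor of cathepsin G, stood at 638, 617 and 806 in GS, 811, 694 and 653 in DM and 706, 749 and 761 in NO. The media overlapped, and the log2 fold change between NO and DM was 0.04 with a 95% confidence interval of -0.28 to 0.37, so a 2-fold change lies outside the interval. Its exons overlap those of Nqo2, Ripk1 and an antisense transcript, and 23.5% of its 60-base stretches occur in transcripts of other genes, so its level is uncertain. Serpinb6c, the neighbouring paralogue (chromosome 13, 33879816 to 33905708, minus strand), was counted at 152, 133 and 150 with GS medium, 142, 141 and 144 with DM and 224, 377 and 375 with NO. GS and DM were nearly level and all NO samples higher, by 1.15 ± 0.21 (SE) against DM (adjusted p = 0.00757) and 1.12 ± 0.21 against GS (adjusted p = 0.00455). Without NO replicate 2 the value against DM was 1.02 (adjusted p = 0.0186), and that against GS 1.00 (adjusted p = 0.0126), just short of 2-fold. The ratio of Serpinb6c to Serpinb6a was 0.186 to 0.238 in the GS samples, 0.175 to 0.221 in the DM samples and 0.317, 0.503 and 0.493 in NO.

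Serpinb8 (ENSMUSG00000026315, chromosome 1, 107590006 to 107610484, plus strand), an intracellular serpin that inhibits furin, was at 17, 21 and 12 with GS medium, 13, 11 and 5 with DM and 28, 156 and 68 with NO. Low in GS and DM, it was above both in every NO sample, with a wide spread among these. It rose by 2.76 ± 0.56 (SE) between DM and NO on the log2 scale (adjusted p = 0.0107) and by 1.98 ± 0.56 between GS and NO (adjusted p = 0.03). Without NO replicate 2 these were 2.16 (adjusted p = 0.027) and 1.37 (adjusted p = 0.102), so the call against GS rests on that sample, and it was also lost without each of the GS replicates or NO replicate 3.

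The tested Serpinb1 paralogues lie in 1 cluster on chromosome 13, and in both the DM values were below the GS values. Serpinb1a (chromosome 13, 32842092 to 32851185, minus strand), an inhibitor of neutrophil elastase, went from 138, 140 and 206 in GS to 69, 46 and 71 in DM, with 93, 73 and 99 in NO. GS was above DM and NO in every sample. It fell by 1.37 ± 0.26 (SE) between GS and DM on the log2 scale (adjusted p = 0.00766), and in NO it was 0.85 below GS (log2 fold change -0.85, adjusted p = 0.0374), under the 2-fold limit. Without NO replicate 2 the latter was -0.72 (adjusted p = 0.103). Serpinb1b (chromosome 13, 33078575 to 33094380, plus strand) gave 10, 8 and 12 for GS, 2, 2 and 0 for DM and 11, 61 and 21 for NO. It was nearly absent from DM and present at a low level in GS and NO. Between NO and DM about 80 against 5 reads were counted, a ratio of 19 with a 95% interval of 7.82 to 60.1 that covers counting error only, and the fitted log2 fold change was 3.61 ± 0.65 (SE, adjusted p = 0.00684), or 2.97 (adjusted p = 0.0171) without NO replicate 2. Between DM and GS the fitted value was -2.39 (adjusted p = 0.0515), not called. The adjusted p of this comparison lay between 0.0195 and 0.211 over 18 alternatives and was under 0.05 in 5 of them.

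The remaining tested clade B genes, Serpinb9, Serpinb9b and Serpinb6b, were called in no comparison. Serpinb9b, related to the granzyme B inhibitor Serpinb9, was nearest to it with a log2 fold change of 0.98 between NO and GS (adjusted p = 0.0514) and values of 94, 141 and 148 in GS and 163, 442 and 211 in NO. Both genes are named outside the rule for naming genes.

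Clade A holds the antitrypsin and antichymotrypsin genes, which are known for high expression in liver. Here 9 of its 12 members stayed below the minimum mean. Serpina3n (ENSMUSG00000021091, chromosome 12, 104406729 to 104414329, plus strand), the best studied mouse relative of antichymotrypsin and an acute-phase gene, had 0 counts in all GS samples, 1, 0 and 1 in DM and 8, 36 and 14 in NO. Every NO sample was above the 6 others. About 50 reads in NO stood against 2 in DM, a ratio of 29.7 with a 95% counting interval of 7.8 to 252, and against 0 in GS, where the floor of 3 reads per library makes it at least 4.91-fold higher in NO. The fitted log2 fold change between NO and DM was 3.43 ± 0.69 (SE, adjusted p = 0.0101), and without NO replicate 2 it was 2.87 (adjusted p = 0.0444). Serpina3i (ENSMUSG00000079014, chromosome 12, 104263122 to 104269372, plus strand) went the other way, with 41, 39 and 41 in GS, 38, 25 and 32 in DM and 26, 8 and 4 in NO. NO lay below GS in every sample and overlapped DM through replicate 1. It fell by 1.95 ± 0.51 (SE) between GS and NO on the log2 scale (adjusted p = 0.0211), and without NO replicate 2 the adjusted p was 0.0534. The call was lost as well without each GS replicate or NO replicate 3. Of its 60-base stretches 11.6% occur in other transcripts, above all those of Serpina3g, so part of its reads could not be assigned. Serpina3m, whose exons overlap those of Serpina3k, lay between 9 and 26 normalised counts and was not called.

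Serping1 (ENSMUSG00000023224, chromosome 2, 84765387 to 84775444, minus strand), the only member of clade G, encodes C1 inhibitor, which controls complement C1 and plasma kallikrein. GS samples held 193, 132 and 143 normalised counts, DM samples 82, 90 and 50 and NO samples 131, 118 and 140. DM was below GS and NO in every sample, and NO overlapped GS. The fall between GS and DM was called (log2 fold change -1.09 ± 0.25 SE, adjusted p = 0.0253), although not when GS replicate 1, 2 or 3 or DM replicate 1 or 3 was left out. Between NO and DM the log2 fold change was 0.84 (adjusted p = 0.0481, and 0.0587 with the replicate number as a block), under the 2-fold limit. Serping1 was the member called nearest to the limit in DM against GS, and the members nearest outside it were Serpinb1a and Serpini1 in NO against GS and Serping1 in NO against DM.

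Serpini1 (chromosome 3, 75557547 to 75643495, plus strand), neuroserpin, inhibits tissue plasminogen activator in the nervous system. It stood at 126, 106 and 147 in GS, 174, 131 and 133 in DM and 179, 239 and 264 in NO, with each NO sample above all others. The differences stayed under 2-fold, with log2 fold changes of 0.84 between NO and GS (adjusted p = 0.0197) and 0.63 between NO and DM (adjusted p = 0.0728). Serpinf1, which encodes PEDF, an anti-angiogenic factor that inhibits no proteinase, had 12, 9 and 16 in GS, 3, 16 and 12 in DM and 17, 59 and 30 in NO. Its value between NO and DM was 1.75 (adjusted p = 0.0682), and with the replicate number as a block the adjusted p was 0.0493, the only call of a member that the block added. The plasma inhibitors of thrombin, Serpinc1 (antithrombin) and Serpind1 (heparin cofactor II), lay between 5 and 17 normalised counts throughout. The intervals of their log2 fold changes between NO and DM were -0.96 to 1.07 and -0.55 to 1.22, so a 2-fold rise is not excluded. Serpinc1 shares exon sequence with Zbtb37.

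To compare clades, values were divided by the exon length of each gene and summed. The family total came to 858.1, 772.9 and 856.4 normalised counts per kilobase in GS, to 837, 814.6 and 887.4 in DM and to 1213.4, 2699.1 and 1943 in NO. GS and DM were alike in total, and every NO sample was higher. Clade E made up 12.7% of the family in GS, 16.3% in DM and 24.2% in NO, and clade H 28.8%, 35.9% and 39.4%. Clade B took 43.3%, 37.8% and 28.8% of it in GS, DM and NO, and Serping1 took 8.07%, 3.8% and 3.21%. Serpine2 alone went from 2.76% to 3.45% of the family in the GS samples to 14.1%, 22.3% and 16.3% in NO replicates 1, 2 and 3. The 35 members other than Serpine2 and Serpinh1 summed to 523.1 to 617.8 in GS, 492.5 to 540.1 in DM and 614.7, 977.1 and 819.0 in NO, so NO replicate 1 lay inside the range of GS.

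**Figure D3:**
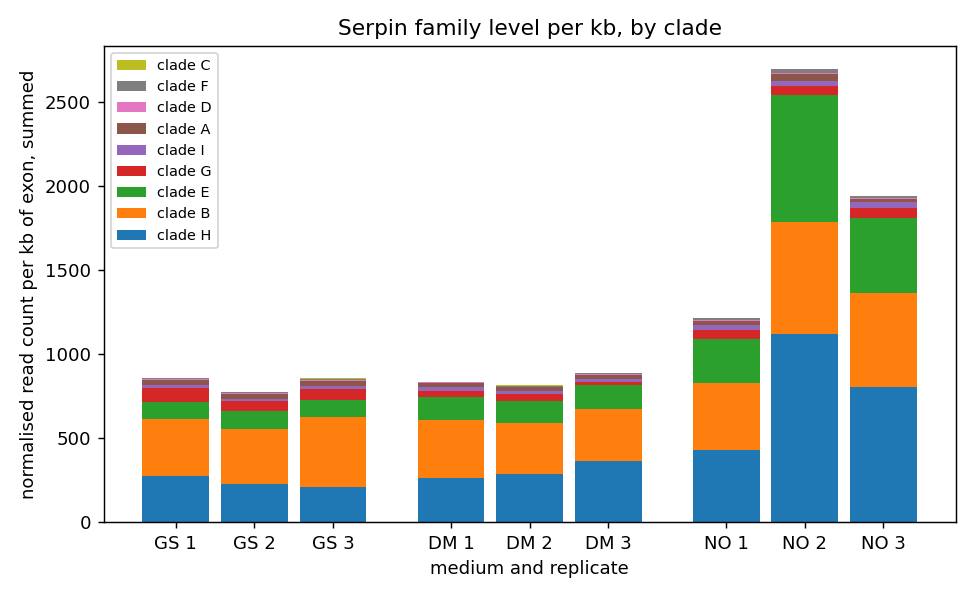
Summed normalised read count per kilobase of exon of all 37 serpin genes (y axis) in each sample (x axis), stacked by clade. The totals are 772.9 to 887.4 in GS and DM and 1213.4 to 2699.1 in NO, where clades E and H take the larger part of the rise.

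Genes of proteinases, receptors and other proteins linked to these serpins were taken from lists of known or possible partners, 103 genes in the table of which 77 were tested. The counts below stand beside 2.94% of all tested genes called higher and 1.27% called lower in DM against GS, 10.1% and 1.64% in NO against GS, and 6.78% and 1.77% in NO against DM. Counts without NO replicate 2 stand beside 6.75% higher and 1.26% lower in NO against GS, and 3.46% and 0.98% in NO against DM. In the plasminogen and thrombin system, 4 of 21 tested genes (19%) were called higher in NO than in DM and 0 lower, with a median log2 fold change of 0.32. Without NO replicate 2 the higher calls were 2 (Plat and Pros1), where 3.46% of all genes were called higher. Plat, tissue plasminogen activator, gave 19, 20 and 30 for GS, 9, 24 and 26 for DM and 45, 612 and 115 for NO (log2 fold change 2.97 between NO and DM, adjusted p = 0.024, and 1.95, adjusted p = 0.0417, without NO replicate 2). Plau, urokinase, had 33, 14 and 17 in GS, 15, 17 and 27 in DM and 44, 229 and 61 in NO (2.10, adjusted p = 0.0291). Both activators and their inhibitor Serpine2 were thus highest in NO, again with replicate 2 above the others. The Plau call was lost without NO replicate 2 (1.4, adjusted p = 0.073), NO replicate 3, DM replicate 1 or DM replicate 2, and the Plat call without NO replicate 3, DM replicate 1 or DM replicate 2. Pros1, protein S, a cofactor in the control of clotting, was higher by 2.52 (adjusted p = 0.00195) and St14, the membrane proteinase matriptase, by 1.22 (adjusted p = 0.015), or 0.83 without NO replicate 2. In DM against GS, 3 genes were called higher, which were Plaur, the urokinase receptor (1.90, adjusted p = 0.00821), Hpn, the membrane proteinase hepsin (1.41), and Mmp2, a matrix metalloproteinase (1.25), both with an adjusted p of 0.00462. F2, prothrombin, had 78 to 136 normalised counts in all samples and was not called. Between NO and GS, 7 genes of this list (33.3%) were called higher and 0 lower, and without NO replicate 2 the higher ones were 4.

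Complexes of Serpine2 with a proteinase are cleared from the cell surface by endocytic receptors. Of 8 tested in this list, 2 were called higher in DM than in GS, Lrp2 (1.45, adjusted p = 0.00203) and Sort1 (1.20, adjusted p = 0.00127). Lrp1, the main such receptor, ranged from 2424 to 3544 with GS medium and from 2921 to 3825 with DM and reached 3192, 7796 and 4699 with NO, a log2 fold change of 0.52 between NO and DM (adjusted p = 0.211). Among 12 inhibitors of other families, 2 were called higher in DM than in GS, the metalloproteinase inhibitors Timp4 (4.92, adjusted p = 0.000476) and Timp3 (2.52, adjusted p = 0.000745). Timp4 had 0, 0 and 3 in GS, 41, 40 and 64 in DM and 6, 6 and 5 in NO. It passed the minimum mean only through its DM samples, so its inclusion is tied to its direction in both comparisons with DM. Lower in NO than in DM were 2 of the 12, namely A2m, a broad proteinase trap, from 1547 to 1707 in DM to 303, 193 and 245 in NO (-2.76, adjusted p = 3.23e-05), and Timp4 (-2.86, adjusted p = 0.0103), and 0 were higher. Between NO and GS 2 of them were higher and 1 was lower. Without NO replicate 2 Timp3 was the only one higher there, and Timp4 was no longer called (2.03, adjusted p = 0.0617).

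Of the collagens and collagen-modifying enzymes that work beside Serpinh1, 4 of 23 tested were called higher in DM than in GS, which were Col4a1 (1.89, adjusted p = 0.00279), Col4a2 (1.43, adjusted p = 0.0224), Col18a1 (1.33, adjusted p = 0.0028) and Fkbp10 (1.62, adjusted p = 0.0384). The Col4a2 and Fkbp10 calls were lost whichever single GS or DM replicate was left out. Serpinh1 itself was not called there, with a log2 fold change of 0.35 (adjusted p = 0.555, 95% confidence interval -0.28 to 0.97). Between NO and DM, Fkbp10, a prolyl isomerase of collagen folding, rose further by 2.16 (adjusted p = 0.00857), Col1a1 rose by 1.56 (adjusted p = 0.0239) and P4ha1, a prolyl hydroxylase subunit, fell by 1.09 (adjusted p = 0.00288). Col4a1 had 1245, 1382 and 1026 in DM and 1114, 3112 and 1624 in NO, which overlap (0.56, adjusted p = 0.222). The Col1a1 call was lost without NO replicate 2 (1.17, adjusted p = 0.0784), DM replicate 1 or DM replicate 2. Between NO and GS 5 genes of this list were higher and 1 was lower, and without NO replicate 2 these counts were 4 and 1. Of 8 tested genes listed for clade B and for neuroserpin, 2 were called higher in NO than in DM, the lysosomal proteinases Ctsd (1.11, adjusted p = 0.00933) and Ctsh (1.34, adjusted p = 0.0497). Ctsd encodes an aspartic proteinase and is not an established target of these serpins. The list also gave 2 higher calls in NO against GS and 0 calls in DM against GS. Without NO replicate 2 the higher calls in NO against DM and in NO against GS were 0 and 1. Ctsh lies at the edge of the threshold and was not called with the replicate number as a block or without NO replicate 2 (1.25, adjusted p = 0.136), and Ctsd without that replicate was at 0.85. The granule proteinases granzyme B (Gzmb), elastase (Elane) and cathepsin G (Ctsg), which clade B serpins are best known for inhibiting, stayed below the minimum mean. In the complement list, C4b, the substrate of the C1 complex that Serping1 controls, was the only one of 5 called between NO and DM, with 7, 13 and 17 in DM and 88, 491 and 197 in NO (4.02, adjusted p = 0.00286, and 3.39, adjusted p = 0.00313, without NO replicate 2), and 1 was called between NO and GS and 0 between DM and GS.

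**Figure D4:**
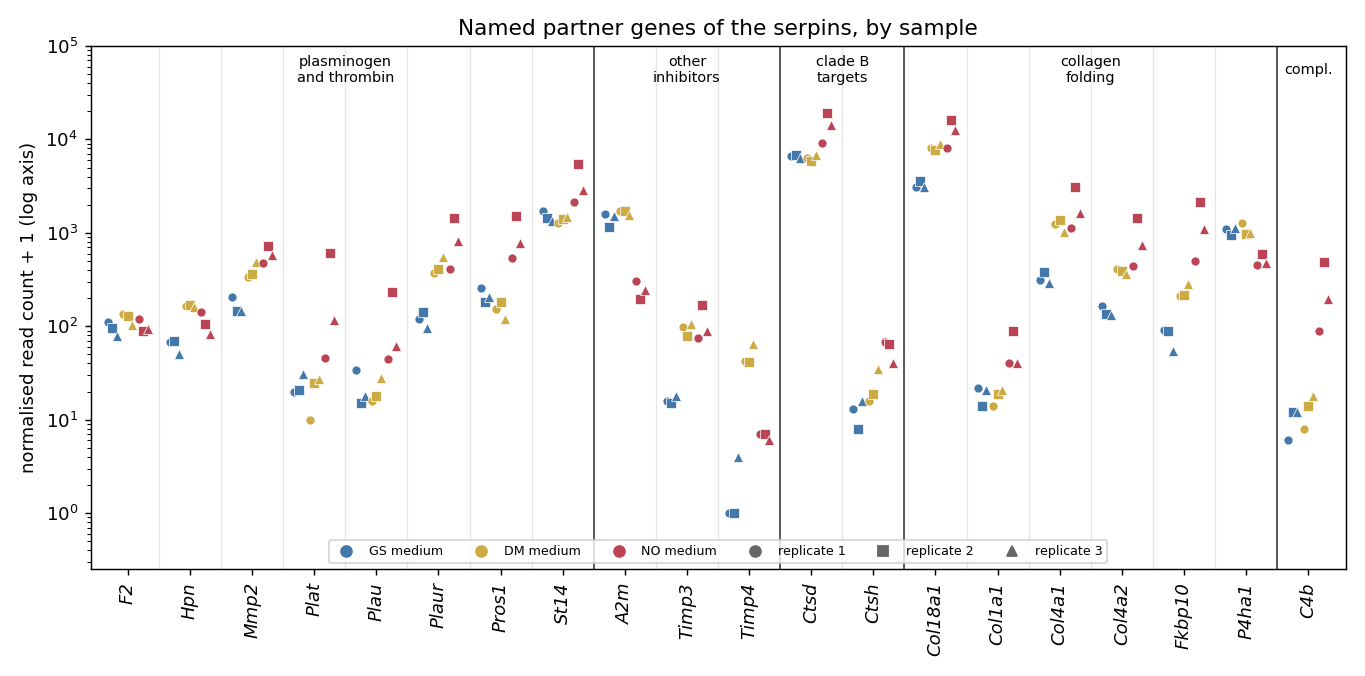
Normalised read count + 1 (log axis) of the named partner genes by sample, in 5 of the lists, clearance receptors left out; colours are the media and symbols the replicates. Plat, Plau, Pros1 and C4b are highest in NO replicate 2 and A2m is lower in all 3 NO samples.

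Markers of other cell types moved in both directions. Of 10 tested trophoblast markers, 4 were called higher in NO than in DM (Krt7, Tfap2c, Hand1 and Gata3) and 0 lower, and without NO replicate 2 Hand1 was no longer called. Against GS, 3 were higher in NO (Krt7, Hand1 and Krt18) and 2 lower (Cdx2, -3.03, adjusted p = 0.011, and Eomes, -1.47, adjusted p = 0.00144). Between DM and GS 3 were lower (Cdx2, Eomes and Tfap2c) and 0 higher. Cdx2, with 0, 4 and 0 in DM and 3, 14 and 5 in NO, passed the minimum mean only through its GS samples. Tfap2c had 326, 262 and 275 in GS, 34, 41 and 52 in DM and 144, 426 and 186 in NO, so that its rise over DM brought it to a level that overlaps GS (-0.35 between NO and GS, adjusted p = 0.51). The trophoblast list summed to 1650 to 1701 in GS, 1148 to 1299 in DM and 1419 to 3027 in NO, highest in replicate 2.

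Of 9 tested markers of extraembryonic endoderm 1 was called higher in NO than in DM, Gata6, with 7, 6 and 11 normalised counts in DM and 20, 234 and 90 in NO. Lama1, the marker of this list with the highest counts in GS, was lower in both other media, with log2 fold changes of -1.29 in DM (adjusted p = 0.000922) and -1.09 in NO (adjusted p = 0.00156), while Gata6 and Apoa1 were higher in NO than in GS. Without NO replicate 2 none of these 3 was called between NO and GS. Apoa1, at 0, 4 and 3 in GS, 2, 6 and 5 in DM and 7, 31 and 22 in NO, passed the minimum mean only through its NO samples. The endoderm list summed to 12242 to 12993 in GS, 7098 to 9420 in DM and 9481 to 12091 in NO. Fibroblast or mesenchyme markers, of which Col1a1 was the only one of 6 tested called between NO and DM and Thy1 was higher in both DM and NO than in GS, summed to 355 to 536 in GS, 439 to 477 in DM and 418 to 576 in NO. In NO against GS, Pdgfrb was lower (-0.97, adjusted p = 0.0169), under the 2-fold limit. Col3a1 (-1, adjusted p = 0.217) and Col1a2 (-0.32, adjusted p = 0.611) were also lower there and Pdgfra higher (0.91, adjusted p = 0.221), without a call. Among 3 tested haematopoietic markers Spi1 was called higher in NO than in DM, and Spi1 and Cd68 were higher in NO than in GS. Without NO replicate 2 Spi1 was no longer called between NO and GS. The list summed to 219 to 282 in GS, 297 to 417 in DM and 487 to 759 in NO, while Ptprc, which defines white blood cells, lay between 0 and 2. The hepatocyte list had no tested gene, and its sum never exceeded 12. Whether any of these cell types had a part in the levels of the serpin genes was not tested.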

How the data were processed

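Total RNA was depleted of ribosomal RNA and sequenced on an Ion Torrent Proton instrument. According to the methods of the study and the submitters' processing notes, the authors checked reads with FastQC 0.11.2, trimmed them with Reaper, aligned them to GRCm38 with STAR 2.4.0a and counted them over exons with featureCounts 1.4.5-p1, leaving out reads of several genes or positions. Use of the strand was not stated. The deposited values are a score per gene, namely read counts divided by DESeq2 size factors and rounded by the authors to whole numbers, and they were used as normalised counts. A column of sums was not used, and 0 columns of single samples were left out.

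Samples were grouped by the medium in their labels, and columns were matched to them by title. Values were fitted as log2(value + 1) with limma 3.58.1 in R 4.3.3, with 18156 genes of a mean above 5, all 9 samples, 3 media as groups, no covariate and a mean-variance trend. Tests were two-sided, with Benjamini-Hochberg adjustment over all genes tested. Fold changes on this scale understate changes of low genes. The procedure was tested on simulated data. These had the same spread setting for every gene, no deviating sample, and changes only in genes well above the minimum mean. They thus do not cover genes of low counts or the spread among the NO samples. The depth per sample was estimated from gaps and doublings among low values, and it limits the precision of values of a few counts. Positions, exon lengths and overlaps were taken from GENCODE M21, and promoters from RefSeq.

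Members and gene lists were chosen with earlier results of these data known. Genes are named if called in at least 1 comparison, if highest by mean count in their clade, or if among the 2 called and 2 uncalled members nearest to the fold limit at an adjusted p under 0.05. Partner genes are named if called in NO against DM or DM against GS, together with Plau, Plat, Plg, F2, Lrp1 and Col4a1 where the table holds them. Some genes and the results that need them are not reported here. Replicate numbers recur in each medium. Deviations from the group means of same-numbered NO and DM samples correlated across genes at 0.159, 0.167 and 0.296 for replicates 1, 2 and 3, all over 0.1. The replicate number was therefore also fitted as a block. This block covered all 9 samples, GS included, and was not a fit of NO and DM pairs alone. Alternatives covered the samples fitted, the block, filters, pseudocounts, moderation, weights, scaling and each replicate left out.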

Additional observations from a re-analysis of the deposited data

How the results depend on the processing

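With 3 replicates per medium, a few calls rest on single libraries, and at 1 read per 0.7009 to 1.323 normalised counts values under about 10 are imprecise. Called serpin genes numbered 2 in DM against GS, 6 in NO against GS and 6 in NO against DM. With a replicate block they numbered 2, 6 and 7, and 674, 2085 and 1553 genes were called overall in place of 763, 2127 and 1552, 660, 2020 and 1458 of them shared. In NO against DM the block added the call of Serpinf1 and ended that of the partner gene Ctsh, and it changed no other call of a named gene. Correlations of same-numbered deviations were -0.178, 0.022 and -0.232 for DM and GS and -0.046, 0.05 and -0.106 for NO and GS, which are no sign of pairing there. With a minimum log2 fold change of 2, 0 and 2 serpin genes were called in DM against GS and NO against GS, and with a minimum mean of 50, 3 were called in either NO comparison. Leaving out single replicates gave 1 to 3, 3 to 7 and 5 to 8. The 3 were those without NO replicate 2 (Serpina3n, Serpine2 and Serpinh1), and the count of 1, Serpinb1a, occurred without any GS replicate and without DM replicate 1 or 3. Serpine2, Serpina3n and Serpinb6c stayed under an adjusted p of 0.05 in both NO comparisons under every alternative in which they were tested. With no minimum mean, Serpina10 (0 in GS and DM, and 2, 5 and 1 in NO) was called as well. Called partner genes numbered 11 in DM against GS, 22 in NO against GS and 13 in NO against DM. A minimum log2 fold change of 2 left 2, 13 and 7, a fit of only the 6 samples compared 8 in NO against DM, and leaving out replicates 9 to 11, 16 to 23 and 7 to 15, with 7 without DM replicate 1 and 8 without NO replicate 2. Quantile normalisation moved the share of calls that were higher from 69.9% to 62.4% in DM against GS, from 86% to 67.5% in NO against GS and from 79.3% to 65.1% in NO against DM, put the median log2 fold change of all genes at -0.115 in NO against GS, and dropped Serpinb6c and Serpinb8 from the calls there. The same setting added Serpinb1a as lower in NO against GS and Serpina3i as lower in NO against DM.

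The sign turned only in values that were not called. Under quantile normalisation the log2 fold change was -0.03 for Serpind1, NO against GS, -0.42 for Serpinc1, NO against DM, -0.11 for Timp3, NO against DM, and -0.33 for F2, NO against GS. Scaling to equal totals gave 0 for Serpinb6c, DM against GS. Leaving out single replicates gave, for DM against GS, -0.08 to 0.01 for Serpinb6c, -0.02 to 0.19 for Serpinb6a, -0.85 to 0.19 for Serpinf1, -0.14 to 0.07 for Serpind1, -0.49 to 0.17 for Serpinc1, -0.28 to 0.1 for Col1a1, -0.11 to 0.09 for P4ha1, -0.3 to 0.29 for Plau and -0.57 to 0.14 for Plat. For NO against GS it gave -0.36 to 0.04 for Serpinc1 and -0.04 to 0.21 for F2. For NO against DM it gave -0.02 to 0.13 for Serpinb6a, -0.29 to 0.37 for Serpinc1, -0.19 to 0.41 for Timp3 and -0.44 to 0.02 for Lrp2. The causes were not tested.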

Other observations

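Serpin genes that the table annotates as pseudogenes lay outside the rule for members. Serpina3h, a pseudogene of the Serpina3 cluster, was counted at 16, 18 and 29 with GS medium, 2, 3 and 1 with DM and 3, 6 and 7 with NO. GS was above every other sample, and the log2 fold change was -2.89 between DM and GS (limma, adjusted p = 0.00531) and -1.81 between NO and GS (adjusted p = 0.0276). This pseudogene passed the minimum mean only through its GS samples, so its inclusion is tied to its direction. Serpina3e-ps never exceeded 3 normalised counts, and the polymorphic pseudogene Serpinb10 was seen only in NO replicate 2, at 3. Among members below the minimum mean, Serpinb5 (maspin) had 2, 0 and 0 in GS, 0, 1 and 0 in DM and 1, 18 and 5 in NO, and Serpinb1c had 6, 0 and 1, then 5, 0 and 0, then 6, 14 and 4. These were not tested, and both were chosen after their values were seen.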
